A study of Homo sapiens with 12 samples.

Results

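The neurotrophin system examined here is a set of 6 genes of 58302 gene rows, namely the receptors *NGFR*, *NTRK2* and *NTRK3*, the ligand *BDNF* and the sorting receptors *SORT1* and *SORCS2*. The members were chosen by their counts in these same libraries: *NGFR* was selected on its rise with both inhibitors, and the other members were listed beside it as neurotrophin ligands and receptors. Their values in those comparisons are therefore a description, given with a standard error and without a p-value. All 6 genes had at least 10 counts in some library and all 6 passed the filter on low counts, although *NGFR*, *NTRK2* and *NTRK3* were at 0 counts in every library of 1 group.

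RNA was sequenced from cells labelled as NCI-H520, a cell line of human squamous lung carcinoma, in 4 groups of 3 libraries. Cells that overexpressed *L1-FGGY*, a transcript joining an L1 element to *FGGY*, from a lentivirus (OV-L1-FGGY) were treated with DMSO or with 10 μM of the 12-LOX inhibitor ML355. The third group is labelled as OV-L1-FGGY cells given 450 μM of the reverse transcriptase inhibitor NVR. The fourth group received DMSO, and its label, which names only a control, was read as the empty vector (OV-CTRL). All media held 0.2% DMSO and were replaced 5 h after seeding. The labels do not say whether the 3 libraries of a group came from separate cultures, so that p-values measure the spread between these libraries, which may be technical. Nor do the labels or methods say whether a line is 1 clone. With RNA from whole cultures, fewer cells of a type and less RNA per cell cannot be told apart.

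The libraries fell into 2 sets that cut across the labels. *FGGY* counts were 4782 to 7346 in OV-L1-FGGY with DMSO or ML355, against 82 to 103 in the libraries labelled NVR and 78 to 91 in OV-CTRL, so each direction given for NVR rests on a label that *FGGY* goes against. The lowest correlation of log2 CPM (counts scaled to a common library size) between libraries of a set was 0.932 and the highest between the sets was 0.774. Total counts ran from 16242082 to 27004768. The libraries labelled NVR were therefore compared first with OV-CTRL, their nearest baseline, and then with OV-L1-FGGY with DMSO, the baseline the labels give. Of 12 squamous and basal epithelial markers, 5 to 7 reached 10 counts in a group. *SOX2*, a transcription factor of squamous carcinoma, was at 0 counts in all 6 libraries of OV-L1-FGGY with DMSO or ML355 and at 128 to 446 counts in the other 6. *KRT5*, a basal keratin, was at 0 to 3 counts in every library, and *KRT6A* and *DSG3* were at 0 throughout. The keratin *KRT17* went the other way from *SOX2*, with 16304 to 97372 counts in those 6 libraries and 1 to 6 in the others. The list summed to 2207 to 5335 CPM against 306 to 375 CPM, with 5 of 9 tested markers higher and 4 lower in OV-L1-FGGY than in OV-CTRL with DMSO. In that comparison 32.5% of all genes tested were called higher and 36.2% lower. Whether both sets are 1 cell line was not tested, and a difference of line cannot be told apart from the other differences between the sets, which bears on each value of OV-L1-FGGY with DMSO against OV-CTRL or the NVR label.

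Neurotrophins are secreted as proproteins that furin, other convertases or plasmin cleave to the mature ligands. *NGFR* encodes p75NTR, a member of the TNF receptor superfamily that binds every neurotrophin, and with sortilin family coreceptors it binds the proforms, which is linked to cell death, whereas the mature ligands act through the Trk receptor tyrosine kinases on survival and growth. In the airway and in stratified epithelia, p75NTR is known as a surface marker of basal cells.

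Promoter windows of RefSeq (GRCh38.p14, 250 bases before to 50 bases after a transcript start) were found for 4 of the 6 genes, 12 windows in all, and *NGFR* and *SORCS2* had no entry. The windows shown belong to *NTRK3*, whose level differed most between the sets of libraries, to *SORT1*, which was counted in every library, and to *BDNF*, for which the window with the EGR match is given since *EGR1* is among the response genes described later. Capitals mark matches, on either strand, to EGR (GCGNGGGCG) or SP (GGGCGG), whose matches may overlap.

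The *NTRK3* window lies on the minus strand at chr15:88256690-88256989, that of *SORT1* on the minus strand at chr1:109397869-109398168, and that of *BDNF* on the minus strand at chr11:27719517-27719816.
NTRK3: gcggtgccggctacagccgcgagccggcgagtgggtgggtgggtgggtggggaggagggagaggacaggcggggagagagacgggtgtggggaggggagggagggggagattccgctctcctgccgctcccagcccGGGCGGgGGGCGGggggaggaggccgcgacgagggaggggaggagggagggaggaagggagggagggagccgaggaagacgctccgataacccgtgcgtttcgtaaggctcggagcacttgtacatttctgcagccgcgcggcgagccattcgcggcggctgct
SORT1: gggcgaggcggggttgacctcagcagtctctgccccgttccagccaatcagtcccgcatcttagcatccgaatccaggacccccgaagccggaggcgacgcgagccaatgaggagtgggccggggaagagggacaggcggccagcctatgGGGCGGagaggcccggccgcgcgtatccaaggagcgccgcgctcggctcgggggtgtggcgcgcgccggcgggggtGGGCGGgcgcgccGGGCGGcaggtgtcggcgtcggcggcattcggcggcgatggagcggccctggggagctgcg
BDNF: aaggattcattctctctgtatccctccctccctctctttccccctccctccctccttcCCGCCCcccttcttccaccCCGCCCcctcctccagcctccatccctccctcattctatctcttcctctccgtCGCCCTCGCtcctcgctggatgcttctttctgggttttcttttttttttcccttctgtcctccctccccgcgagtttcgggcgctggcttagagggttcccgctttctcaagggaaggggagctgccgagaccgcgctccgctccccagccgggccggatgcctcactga

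The *NTRK3* window held 2 SP matches, 30 CpG and 72.0% G or C, the *SORT1* window 3 SP matches, 41 CpG and 74.7% G or C, and the *BDNF* window 2 SP matches, 1 EGR match, 17 CpG and 61.7% G or C. The median over all 35116 windows was 14 CpG. An EGR match was present in 9.43% of all windows and an SP match in 45.0%. No window of the 4 genes held a TATA box match, whose letters TATAAA were present in 11.5% of all windows. Nor did one hold a CRE match (TGACGTCA, 1.85% of all windows) or an AP-1 match (TGANTCA, 7.71%). A second *BDNF* window held 1 E-box match, with the letters CACGTG found in 7.26% of all windows. A match describes letters only and is not a measured binding site.

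*NGFR* (ENSG00000064300, chromosome 17 of GRCh38, 49495293 to 49515008, plus strand) had a separate level in each of the 4 groups. It had 0, 0 and 0 counts in replicates 1, 2 and 3 of OV-L1-FGGY with DMSO, where a count of 0 allows up to 0.151 to 0.172 CPM per library (3 counts, counting error only). It had 38, 60 and 57 counts in OV-CTRL with DMSO. With ML355 it had 180, 253 and 216 counts. The libraries labelled NVR held 1584, 2402 and 1478 counts. No library of one group reached the range of another, so the order ran from OV-L1-FGGY with DMSO through OV-CTRL and ML355 to NVR, with neighbours apart by more than their spread. In CPM, with library sizes scaled by TMM, the means were 0, 2.04 ± 0.394, 11.1 ± 2.09 and 83.1 ± 5.14 (SD, n = 3 each).

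**Figure D1:**
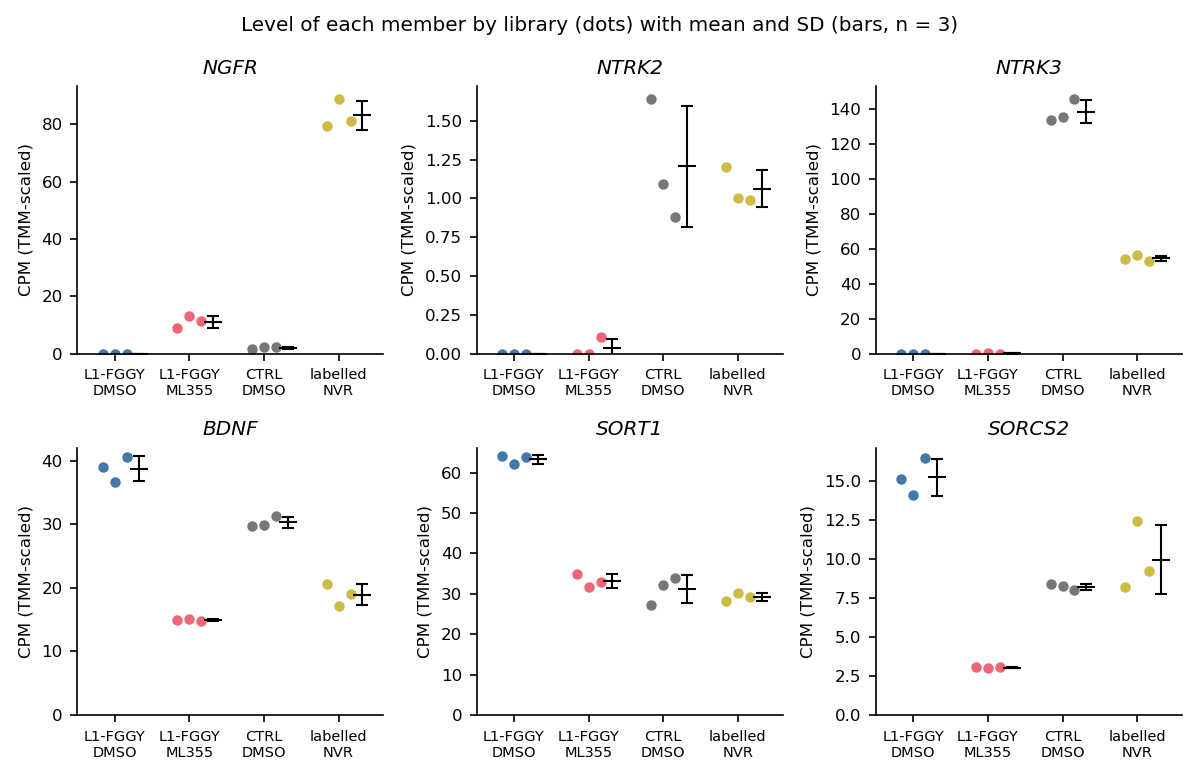
Level of each of the 6 genes in CPM with TMM scaling (y axis, linear, from 0) by group (x axis); dots are libraries and bars the mean and SD, n = 3. The mean of *NGFR* is 0, 11.1, 2.04 and 83.1 CPM from left to right, *NTRK2* and *NTRK3* are near 0 in both OV-L1-FGGY groups on the left, and *BDNF*, *SORT1* and *SORCS2* are highest in OV-L1-FGGY with DMSO.

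*NGFR* was at least 69.1-fold higher with ML355 than with DMSO in OV-L1-FGGY, a lower bound set by the floor of 3 counts per library. In the libraries labelled NVR it was higher than in OV-CTRL by 5.34 ± 0.19 on the log2 scale (SE), and at least 518-fold above that in OV-L1-FGGY with DMSO. Between the DMSO groups it was at least 12.7-fold lower in OV-L1-FGGY. Reads of the overlapping antisense gene *NGFR-AS1* were 0 to 4 counts in every library, so that its counts were a small part of the *NGFR* counts in the groups with signal; whether counting used strand is not given in the sources used here.

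p75NTR also marks Schwann cells and neural crest, so such markers were read beside *NGFR*. *SOX10* and *S100B*, 2 markers of these cells, had 0 counts in all 12 libraries. *FOXD3*, also on this list, had 7 to 11 counts in OV-L1-FGGY with DMSO and 1 to 5 with ML355. It had 42 to 62 counts in OV-CTRL and 74 to 106 with the NVR label. *ERBB3* went the other way, with means of 32.8, 21.5, 2.28 and 2.20 CPM in the same order. Between the NVR label and OV-CTRL, 1 of 5 tested markers was higher and 0 lower, beside 14.5% and 15.3% of all genes. The 9 markers of this list summed to 208 to 220 CPM in OV-L1-FGGY with DMSO, 202 to 237 with ML355, 79.0 to 83.2 in OV-CTRL and 85.3 to 96.7 CPM with the NVR label, and 4 of 9 reached 10 counts in each group. Although the sums with and without ML355 overlapped, all 5 tested markers of this list were called with ML355, 1 higher and 4 lower (median -1.02). Of all genes tested, 21.3% were called higher and 23.5% lower with ML355, which also applies to the marker counts that follow. *PMP22* rose from 112 to 169 CPM, while *CDH19* fell from 11.9 to 0.944 CPM and *MBP* from 57.7 to 28.3 CPM. The summed fibroblast markers were at 112 to 122 CPM with ML355, and 4 of 5 tested were lower. Of the squamous and basal markers, 2 were higher and 3 lower of 9 tested (median -0.67). Their sum was 3601 to 5335 CPM against 2207 to 2266 CPM with DMSO, with *KRT17* at a mean of 4236 against 944 CPM, while *PERP* fell from 1010 to 333 CPM and *ITGB4* from 212 to 133 CPM. Their part in the results was not tested.

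The Trk receptors followed the sets of libraries rather than the order of *NGFR*. *NTRK3* (ENSG00000140538, chromosome 15, 87859751 to 88256791, minus strand) encodes TrkC, the receptor of NT-3. Its counts were 3176, 3458 and 3798 in OV-CTRL and 1082, 1516 and 969 in the libraries labelled NVR. They were 0, 0 and 0 in OV-L1-FGGY with DMSO and 0, 4 and 0 with ML355, at or near the floor. OV-CTRL was the highest group, the libraries labelled NVR were second, and these ranges were apart. In CPM the means were 138 ± 6.57 and 54.5 ± 1.51 (SD, n = 3), a log2 fold change of -1.34 ± 0.16 (SE) for NVR against OV-CTRL. No fold is given for ML355 against DMSO, since both groups were at or near the floor. The antisense *NTRK3-AS1* had at most 10 counts.

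*NTRK2* (ENSG00000148053, chromosome 9, 84668375 to 85095751, plus strand) encodes TrkB, the receptor of BDNF. It had 39, 28 and 23 counts in OV-CTRL and 24, 27 and 18 in the libraries labelled NVR, which overlapped. In OV-L1-FGGY it had 0, 0 and 0 counts with DMSO and 0, 0 and 2 with ML355, which is below detection at this depth. The log2 fold change of NVR against OV-CTRL was -0.18 ± 0.43 (SE). At about 1 CPM in 2 groups, *NTRK2* gave the least precise fold of the set.

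The pair *NGFR* and *NTRK3* moved in opposite directions between OV-CTRL and the libraries labelled NVR, and their ratio within a library needs no scaling between libraries. There were 1.20 to 1.74 *NGFR* counts per 100 *NTRK3* counts in the 3 libraries of OV-CTRL, and 146 to 158 in those labelled NVR. The mean was 1.48 ± 0.270 against 152 ± 6.02 (SD, n = 3), given without a test because both genes were chosen with these values known.

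*BDNF* (ENSG00000176697, chromosome 11, 27654893 to 27722058, minus strand), the ligand of TrkB, was counted in every library. Its level was 39.1, 36.7 and 40.7 CPM in OV-L1-FGGY with DMSO and 15.0, 15.0 and 14.8 CPM with ML355. It was 29.8, 29.8 and 31.3 CPM in OV-CTRL and 20.6, 17.2 and 19.1 CPM in the libraries labelled NVR. All 4 ranges were separate, with OV-L1-FGGY with DMSO highest and ML355 lowest. The log2 fold change was -1.38 ± 0.11 for ML355 against DMSO and -0.68 ± 0.11 for NVR against OV-CTRL (SE). Against OV-L1-FGGY with DMSO, the libraries labelled NVR were lower by -1.04 ± 0.11. *BDNF* thus had lower values with each inhibitor label, while *NGFR* had higher ones. The antisense *BDNF-AS* had at most 24 counts.

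*SORT1* (ENSG00000134243, chromosome 1, 109309568 to 109397918, minus strand) encodes sortilin, the coreceptor of p75NTR for proneurotrophins. It stood at 64.1, 62.1 and 63.8 CPM in OV-L1-FGGY with DMSO and at 35.0, 31.6 and 32.9 CPM with ML355. In OV-CTRL it stood at 27.2, 32.3 and 34.0 CPM and in the libraries labelled NVR at 28.3, 30.2 and 29.1 CPM. Only OV-L1-FGGY with DMSO lay apart from all the other groups, OV-CTRL overlapped both ML355 and NVR, and ML355 lay above NVR. The log2 fold change was -0.93 ± 0.11 for ML355, -0.09 ± 0.11 between the NVR label and OV-CTRL, and -1.12 ± 0.11 between the NVR label and OV-L1-FGGY with DMSO (SE).

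*SORCS2* (ENSG00000184985, chromosome 4, 7192538 to 7742836, plus strand) encodes another sortilin family receptor that binds proneurotrophins with p75NTR. It was at 15.1, 14.1 and 16.5 CPM in OV-L1-FGGY with DMSO and at 3.10, 2.99 and 3.05 CPM with ML355. In OV-CTRL it was at 8.41, 8.25 and 8.02 CPM and in the libraries labelled NVR at 8.21, 12.4 and 9.22 CPM. OV-L1-FGGY with DMSO was highest, ML355 lowest, and OV-CTRL and NVR overlapped, with replicate 2 labelled NVR above the other libraries of both. The log2 fold change was -2.32 ± 0.18 for ML355, 0.28 ± 0.16 between the NVR label and OV-CTRL, and -0.61 ± 0.16 between the NVR label and OV-L1-FGGY with DMSO (SE). The gene *PSAPL1*, which overlaps it on the opposite strand, had at most 13 counts.

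**Figure D2:**
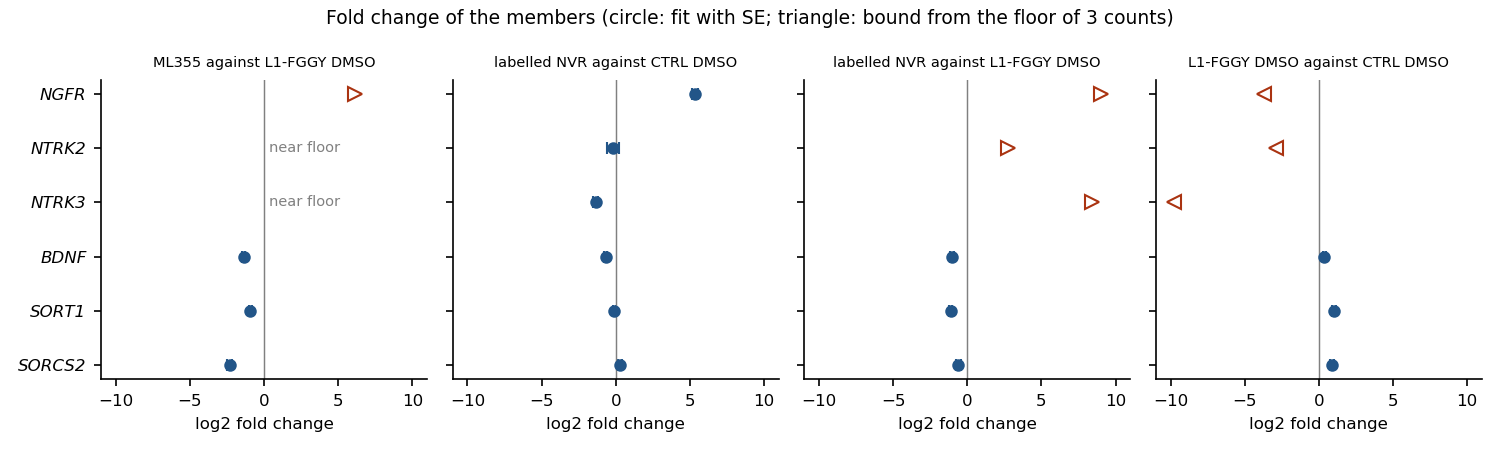
Log2 fold change (x axis) of the 6 genes (y axis) in the 4 comparisons; circles are fitted values with SE and open triangles are lower bounds from the floor of 3 counts. *NGFR* lies to the right in the 3 comparisons with an inhibitor label and to the left between the DMSO groups, and *NTRK2* and *NTRK3* have no value for ML355 because both groups were near the floor.

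The calls of the members in the comparisons used to choose them are given as counts, from which nothing is read. With ML355, 1 member was called higher and 3 lower at an adjusted p under 0.01, where 21.3% of the 17849 genes tested were called higher and 23.5% lower. Between the NVR label and OV-CTRL these were 1 and 2 members, beside 14.5% and 15.3% of all genes. Against OV-L1-FGGY with DMSO they were 3 and 3, beside 38.2% and 35.4%.

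The comparison of OV-L1-FGGY with OV-CTRL in DMSO was not named in the choice of the members, except for *NGFR*, whose low level in both DMSO groups was part of it. The members were still chosen with earlier results of these data known, so their values here are also given without a p-value. Of the 6, 3 were called higher and 3 lower, where 32.5% of all genes were called higher and 36.2% lower. *NTRK3* was at least 862-fold lower and *NTRK2* at least 7.52-fold lower in OV-L1-FGGY. For both genes a further reason to give no p-value is that they passed the filter on low counts through the groups in which they were high, as did *NGFR*. *SORT1* was higher by 1.02 ± 0.11 on the log2 scale (SE) and *SORCS2* by 0.89 ± 0.16, each higher in 3 of 3 libraries than in any library of OV-CTRL. *BDNF* was higher by 0.36 ± 0.11 without overlap of the groups, but its call was lost with DESeq2's size factors and without the filter on low counts. The call was also lost without either replicate 1 or 3 of OV-L1-FGGY with DMSO or without any 1 of the 3 libraries of OV-CTRL. With 68.7% of all genes called in this comparison and a median log2 fold change of -0.11 over all genes, calls of the members lay on a high background. Along with the members moved markers of other cell types: *LUM* and *DCN*, fibroblast matrix genes, were at 4000 to 4327 and 966 to 1266 counts in OV-L1-FGGY with DMSO and at 0 to 2 and 0 in OV-CTRL, and the summed level of the 8 fibroblast markers was 341 to 360 CPM (4 of 8 at 10 counts) against 25.2 to 30.0 CPM (2 of 8), while *COL1A2* was at 0 or 1 counts. *THY1*, of the same list, went the other way, with 0 counts in OV-L1-FGGY and 106 to 124 in OV-CTRL, so that 4 of 5 tested were higher and 1 lower. The 9 neuronal markers summed to 13.9 to 17.6 CPM (1 of 9 at 10 counts) against 67.9 to 71.0 CPM (5 of 9), with *RBFOX3*, a neuronal splicing factor, at 1 to 5 against 587 to 615 counts. The part of these differences in the results was not tested.

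Between genes, levels were compared as CPM per kb of annotated exon, a scale on which the long annotated exons of *NTRK2* and *NTRK3* (33162 and 26773 bases in all) lower their values. In the libraries labelled NVR, *NGFR* was the highest at 20.1 CPM per kb, followed by *SORT1* at 3.20, *BDNF* at 2.45, *NTRK3* at 2.03, *SORCS2* at 1.58 and *NTRK2* at 0.0320. In OV-CTRL the highest was *NTRK3* at 5.16 CPM per kb, with *BDNF* at 3.92 and *NGFR* at 0.494. In OV-L1-FGGY with DMSO, *SORT1* led at 6.94 CPM per kb and *BDNF* followed at 5.01, and with ML355 *SORT1* at 3.64 was followed by *NGFR* at 2.68 and *BDNF* at 1.93. The receptor that led by this scale was thus a different one in OV-CTRL and in the libraries labelled NVR.

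Among the remaining ligands and receptors of the family, several were at low counts. *NTF3*, which encodes NT-3, and the sortilin family gene *SORCS3* had 0 counts in every library. *NTF4*, which encodes NT-4, had at most 11 counts. *SORL1*, a sorting receptor of the same family as sortilin, fell with ML355 by 0.73 ± 0.22 on the log2 scale (SE, adjusted p = 0.00979). Of the 4 genes of this list that were tested, 0 were higher and 2 lower with ML355 by edgeR, with the same counts at an unadjusted p under 0.05 and by DESeq2, and 0 and 1 by voom. For NVR against OV-CTRL, 0 were called by edgeR, DESeq2 or voom, and 0 had an unadjusted p under 0.05. By edgeR, 21.3% of all genes were called higher and 23.5% lower with ML355, and 14.5% and 15.3% for NVR against OV-CTRL.

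Genes of the wider pathway were counted by the same fit, from 6 lists that hold 91 genes, of which 82 were tested. The lists were chosen with earlier results of these data known, so calls and p-values of their genes are descriptive. Other tools used the same counts and do not change that. With ML355, 22 were higher and 20 lower, and in the libraries labelled NVR 16 were higher and 14 lower than in OV-CTRL. These counts stand beside 21.3% and 23.5% of all genes for ML355 and 14.5% and 15.3% for NVR, and are near those shares. Immediate early and other genes known to respond to neurotrophins had 10 higher and 0 lower of 13 tested with ML355, with a median log2 fold change of 2.17 (2.20 without a gene at the floor) against a median of 0 over all genes. The counts were also 10 and 0 at an unadjusted p under 0.05, by DESeq2 and by voom. The list is named for a known response, and whether neurotrophins had a part in its calls was not tested. *EGR1*, a zinc finger factor of the immediate early response, had 15, 12 and 12 counts in OV-L1-FGGY with DMSO and 2005, 6738 and 4024 with ML355 (log2 fold change 8.29 ± 0.47, SE, adjusted p = 1.15e-09). *FOS*, a subunit of AP-1, rose by 3.39 ± 0.18 (adjusted p = 7.32e-10). Between the NVR label and OV-CTRL, 5 were higher and 0 lower of 13, with a median of 0.72 against 0. These were 8 and 0 at an unadjusted p under 0.05, 6 and 0 by DESeq2 and 4 and 0 by voom. *VGF*, a secreted neuropeptide precursor, rose by 1.62 ± 0.23 (adjusted p = 4.79e-05) and *JUNB* by 1.00 ± 0.14 (adjusted p = 4.93e-05). *EGR1* had 6528, 8641 and 8822 counts in OV-CTRL and 6007, 10655 and 4143 in the libraries labelled NVR, so that its groups overlapped there. OV-L1-FGGY with DMSO was thus the group with low *EGR1* as well as with no *NGFR* count. When the NVR label was set against OV-L1-FGGY with DMSO, 9 of these 13 genes rose and 1 fell, beside 38.2% and 35.4% of all genes. Between the DMSO groups, 1 was higher and 7 lower in OV-L1-FGGY, beside 32.5% and 36.2% of all genes. Both comparisons reused the OV-L1-FGGY libraries with DMSO that were the baseline for ML355, so these counts were not independent of the ML355 counts. Both also ran across the sets of libraries.

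**Figure D3:**
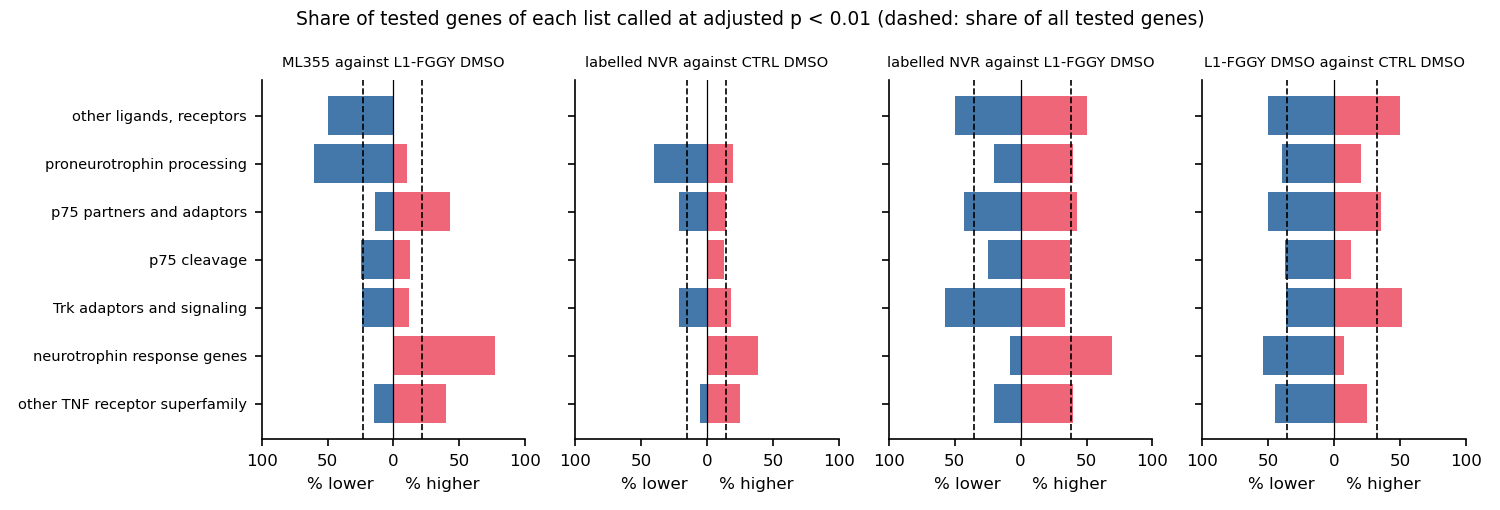
Share of the tested genes of each pathway list (y axis) called lower (left, blue) or higher (right, red) at an adjusted p under 0.01, in percent (x axis), in the 4 comparisons; dashed lines are the share of all genes tested. Neurotrophin response genes were called higher in 10 of 13 with ML355 and in 5 of 13 between the NVR label and OV-CTRL, and none was called lower in these 2 comparisons. Whether neurotrophins had a part in these calls was not tested.

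Genes that make or cleave proneurotrophins had 1 higher and 6 lower of 10 tested with ML355 (median -0.83), and 2 higher and 4 lower for NVR against OV-CTRL (median -0.12). The shares of all genes were 21.3% and 23.5% with ML355, and 14.5% and 15.3% for NVR against OV-CTRL. *FURIN*, a convertase that cleaves proneurotrophins, fell from 249 to 111 CPM with ML355 (-1.17 ± 0.11, SE, adjusted p = 2.74e-07) and rose from 132 to 285 CPM for NVR against OV-CTRL (1.11 ± 0.11, adjusted p = 1.37e-06). *PLAT*, tissue plasminogen activator, fell with ML355 by 2.86 ± 0.30 (adjusted p = 7.03e-07).

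Partners and adaptors of p75NTR had 6 higher and 2 lower of 14 tested with ML355 (median 0.36, or 0.39 without a gene at the floor), and 2 higher and 3 lower for NVR against OV-CTRL (median -0.16). For these counts and those of the secretase genes below, the shares of all genes were 21.3% and 23.5% with ML355. They were 14.5% and 15.3% for NVR against OV-CTRL. *RIPK2*, a kinase that binds the p75NTR death domain, rose by 1.64 ± 0.11 with ML355 (SE, adjusted p = 7.72e-09), as did *RTN4R*, the Nogo receptor, by 1.18 ± 0.18 (adjusted p = 3.26e-05). In the libraries labelled NVR, *MAGED1* (NRAGE) was higher by 0.75 ± 0.11 (adjusted p = 6.88e-05) and *LINGO1*, a coreceptor of the Nogo complex, lower by -1.06 ± 0.20 (adjusted p = 0.000714) than in OV-CTRL. Of the 8 genes of the alpha- and gamma-secretases that cleave p75NTR, 1 was higher and 2 lower with ML355 (median -0.06), among them *APH1B* at -1.39 ± 0.15 (adjusted p = 1e-06) and *PSEN2* at -0.99 ± 0.11 (adjusted p = 1.71e-06). For NVR against OV-CTRL, 1 was higher and 0 lower by edgeR, DESeq2 and voom (median 0.17, 2 and 2 at an unadjusted p under 0.05), and this was *APH1B* at 0.66 ± 0.13 (adjusted p = 0.000771).

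Among 33 Trk adaptors and signaling genes, 4 were higher and 8 lower with ML355 (median -0.07), and 6 higher and 7 lower for NVR against OV-CTRL (median -0.11). Over all genes tested, 21.3% were called higher and 23.5% lower with ML355, and 14.5% and 15.3% for NVR against OV-CTRL. The adaptors *SHC4* and *SHC3* fell with ML355 (-3.86 ± 0.34, SE, adjusted p = 1.35e-07, and -3.43 ± 0.41, adjusted p = 3.12e-06). With ML355, *SHC4* had 8, 6 and 4 counts and *SHC3* had 4, 13 and 9, near the floor of 3 counts. Against OV-CTRL, *PLCG2*, a phospholipase, was higher by 1.22 ± 0.14 (adjusted p = 5.67e-06) and the phosphatase gene *PTPN11* lower by -1.22 ± 0.20 (adjusted p = 0.000203) in the libraries labelled NVR. Other members of the TNF receptor superfamily had 8 higher and 3 lower of 20 tested with ML355 (median 0.47, or 0.66 with genes near the floor at their bound or left out), and 5 higher and 1 lower for NVR against OV-CTRL (median 0.02). These counts stand beside the same shares of all genes. *TNFRSF9* rose by 3.22 ± 0.28 (adjusted p = 1.18e-07) and *TNFRSF10B*, a TRAIL receptor, by 1.41 ± 0.14 (adjusted p = 3.09e-07) with ML355. In OV-L1-FGGY with DMSO, *TNFRSF9* had only 5, 9 and 13 counts. *TNFRSF1B* was higher by 1.81 ± 0.14 (adjusted p = 1.3e-07) and *TNFRSF12A* lower by -1.34 ± 0.15 (adjusted p = 5.74e-06) for NVR against OV-CTRL.

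**Figure D4:**
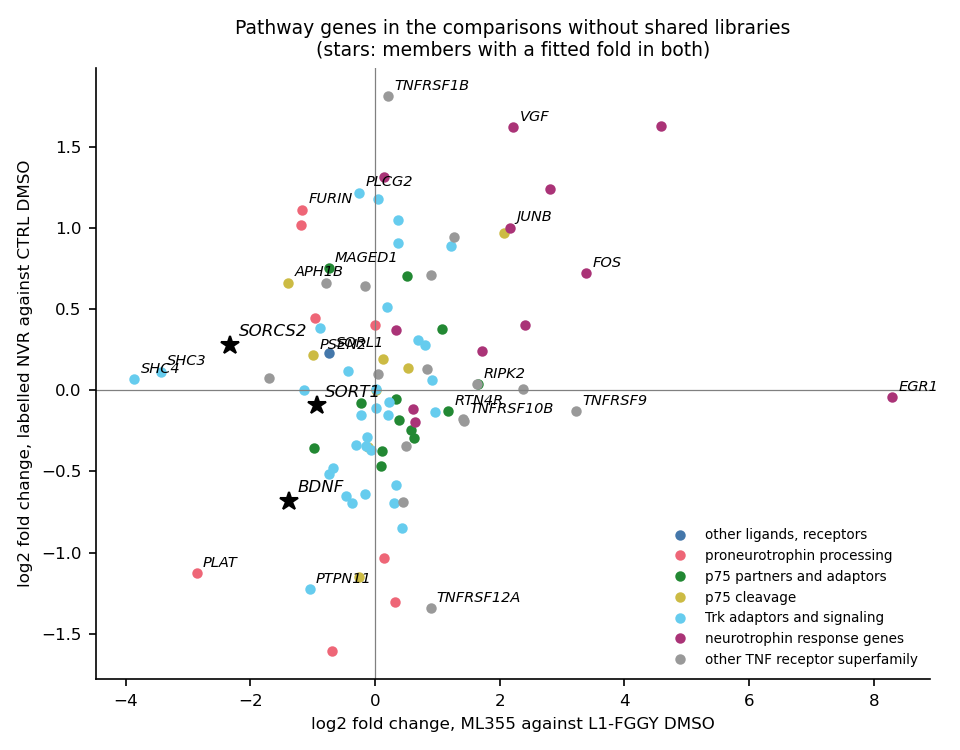
Log2 fold change for ML355 against DMSO in OV-L1-FGGY (x axis) and between the NVR label and OV-CTRL (y axis), which share no library; dots are pathway genes with a fitted value in both, coloured by list, and stars are *BDNF*, *SORT1* and *SORCS2*. *BDNF* lies at -1.38 and -0.68, *SORCS2* at -2.32 and 0.28, and *EGR1* far to the right at 8.29.

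In DMSO, 28 of the 82 pathway genes were higher and 35 lower in OV-L1-FGGY than in OV-CTRL, beside 32.5% and 36.2% of all genes. The adaptor *FRS2*, which links Trk receptors to Ras, was higher by 2.45 ± 0.15 on the log2 scale (SE, adjusted p = 4.35e-10) and *NRAS* by 1.94 ± 0.12 (adjusted p = 3.9e-10). *MAGED1* was lower by -3.31 ± 0.13 (adjusted p = 1.18e-12). *FOS* stood at 4.50 CPM in OV-L1-FGGY and 229 CPM in OV-CTRL (-5.67 ± 0.20, adjusted p = 4.07e-13). The libraries labelled NVR differed from OV-L1-FGGY with DMSO in 35 higher and 32 lower of 82, beside 38.2% and 35.4% of all genes.

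The genes most like *NGFR* over the 12 libraries, by the root mean square difference of log2 CPM after centring among 12128 candidates, were *G0S2* (1.64), *CAPN5* (1.71), *ERFL* (1.71), *BBC3* (1.74) and *TMEM178A* (1.76), where the SD of *NGFR* itself was 3.59. *G0S2*, an inhibitor of lipolysis, stood at 2.07 CPM in OV-L1-FGGY with DMSO, 27.9 in OV-CTRL, 36.8 with ML355 and 113 in the libraries labelled NVR. *BBC3*, which encodes the proapoptotic protein PUMA, stood at 8.98, 87.6, 141 and 367 CPM in the same order. Both kept the order of the *NGFR* means. The other 3 had OV-CTRL above ML355 instead, with means of 18.8 and 11.7 CPM for *CAPN5*, 2.49 and 1.97 CPM for *ERFL* and 1.36 and 0.702 CPM for *TMEM178A*. For the other members the nearest genes were closer: *RHBDF2* (0.28) and *MNX1* (0.32) for *NTRK2*, *GPX2* (0.39) and *GABRA5* (0.54) for *NTRK3*, *UMPS* (0.13) and *NCBP1* (0.14) for *BDNF*, *DHX57* (0.11) and *PURB* (0.11) for *SORT1*, and *NREP* (0.15) and *ADGRA3* (0.18) for *SORCS2*.

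Of 15 protein-coding genes within 500 kb of *NGFR*, 12 were tested. With ML355, 2 were higher and 3 lower, beside 21.3% and 23.5% of all genes. In the libraries labelled NVR, 4 were higher and 2 lower than in OV-CTRL, beside 14.5% and 15.3% of all genes. *FAM117A* was at least 12.1-fold higher with ML355, given without a p-value since it had 1 to 3 counts per library in OV-L1-FGGY with DMSO. It was higher by 1.73 ± 0.26 on the log2 scale for NVR (SE, adjusted p = 8.49e-05). *DLX4*, a homeobox gene, fell by 2.74 ± 0.17 with ML355 (adjusted p = 3.8e-09) and rose by 0.93 ± 0.15 for NVR (adjusted p = 0.000155). *SPOP*, *SLC35B1* and *PHB1* did not pass the threshold in either comparison, with log2 fold changes from -0.29 to 0.16, so that values near *NGFR* moved in either direction or not at all by this test.

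**Figure D5:**
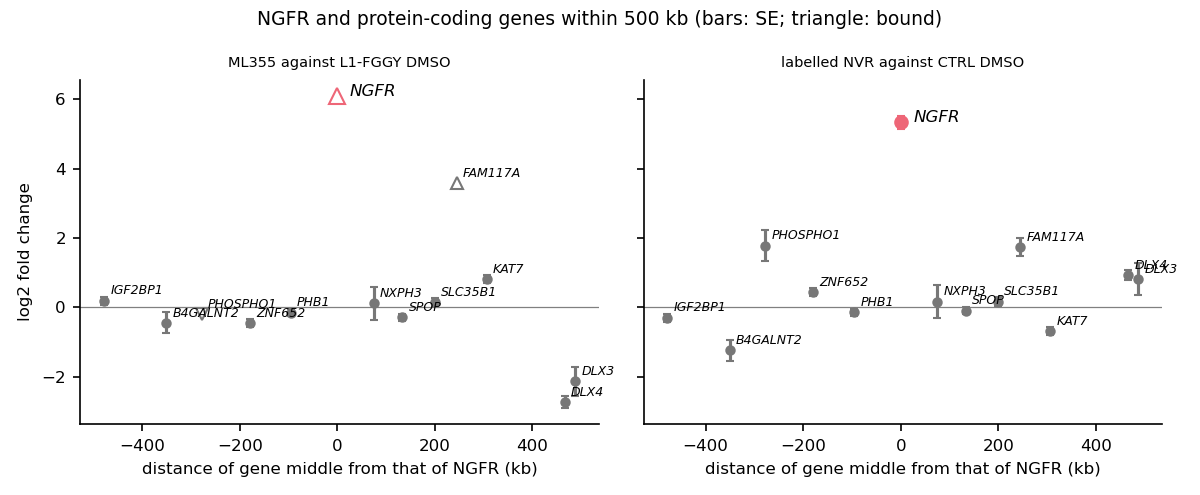
Log2 fold change (y axis) of *NGFR* and of the protein-coding genes within 500 kb against the distance between gene middles (x axis, kb), for ML355 against DMSO (left) and for NVR against OV-CTRL (right); bars are SE and open triangles lower bounds. *NGFR* stands above all 12 neighbours in both panels, and *FAM117A* is higher and *DLX4* is lower with ML355.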

How the data were processed

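RNA was measured in 12 libraries of cells labelled as NCI-H520, in 4 groups of 3 set by the labels. Reads were aligned by the authors with STAR (2.5.3a) on hg38 and assigned to genes with HTSeq (0.11.2), per the submitters' processing notes, and the authors deposited whole-number counts without normalization; the annotation and the strand setting are not given in the sources used here. The DMSO columns without a group name were assigned to the control by elimination. Of 58302 identifiers, 57532 were matched to GENCODE 44.

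Genes were filtered with filterByExpr (17849 kept), scaled by TMM and fitted together with edgeR 4.0.16 in R 4.3.3 (robust quasi-likelihood, 4 group means, Benjamini-Hochberg adjusted p under 0.01). The log2 CPM used a prior count of 2. At a floor of 3 counts per library (0.111 to 0.172 CPM), folds are lower bounds, and limits cover counting error only. The study's own test was voom, so that limma 3.58.1 and DESeq2 1.42.0 were alternatives. Scripts were tested on simulated data. Figures used Python 3.11.15 with matplotlib 3.10.9.

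The members and lists were chosen with earlier results of these data known. Named are the members, up to 2 genes called per list and comparison with the smallest adjusted p (those of the comparisons with OV-L1-FGGY with DMSO and NVR, or between the DMSO groups, are not all printed), the genes nearest in pattern, neighbours and overlapping genes, and *FGGY*. The other genes printed, such as *SOX2* and *LUM*, were named after their values were seen. Some genes of the lists are not reported here.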

Additional observations from a re-analysis of the deposited data

How the results depend on the processing

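The directions and calls of the members and the counts of called genes were recomputed under other scalings, filters, tools and thresholds, in fits of only the groups compared, with a replicate block, and without each library in turn. No called value reversed. The *NTRK2* fold for NVR against OV-CTRL, which was not called, ran from -0.37 to 0.10 on the log2 scale without single libraries. Of the counts of genes, 187 stayed within 1.5 times the main count and 5 moved. Where calls also needed a log2 fold change of 1 or more in size, the genes called fell from 8004 to 4590 for ML355 and from 5316 to 2344 for NVR against OV-CTRL, and the pathway genes from 42 to 23 and from 30 to 15. Without single libraries, genes called for NVR against OV-CTRL ran from 3506 (without replicate 2 of OV-CTRL) to 6106. The level of *NGFR* in the libraries labelled NVR was 76.3 CPM with the library size alone, against 83.1. *SORCS2* for NVR against OV-L1-FGGY with DMSO was counted as called at a log2 fold change of -0.61, and was not without replicate 3 of that group (-0.55) or replicate 1 labelled NVR (-0.50), nor in a fit of only these groups (-0.56). With the library size alone, the median log2 fold change over all genes was -0.13 for ML355 and -0.15 for NVR against OV-CTRL, where TMM gave 0. Depth limits *NTRK2*, at 39 counts or fewer in every library.

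The replicate numbers did not pair the libraries, with correlations of same-numbered deviations from -0.35 to 0.17. With the number as a block, 7583 genes were called for ML355, 4754 between the NVR label and OV-CTRL, 12874 for NVR against OV-L1-FGGY with DMSO and 11979 between the DMSO groups; pathway genes were 38, 28, 67 and 63, and members 4, 3, 6 and 6.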
